A study of Homo sapiens with 12 samples.

Results

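Peaks at the 3 prime end of genes are described here: 2636 of the 9958 peak regions that an m7G antibody experiment yielded. A peak belongs to this set where it overlaps the body of exactly 1 protein-coding RefSeq gene on GRCh38, readthrough genes left aside, and has its midpoint in the last 10% of that gene, counted along the strand given for the peak. The 2636 peaks lie in 1805 genes and make up 28.8% (95% exact interval 27.8 to 29.7) of the 9165 peaks in 1 protein-coding gene. The interval takes peaks as independent, although several can overlap or lie in 1 gene. Another 613 peaks overlap several such genes and 180 overlap none. Position alone chose the peaks, so read counts played no part in the choice, although each peak had first been called by the authors.

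The cells were THP-1, a human monocytic leukemia line. All of them had been made adherent with PMA, a phorbol ester that drives monocytic cells toward macrophages, at 100 ng/ml for 48 hours. NC stands for the control, which the series calls wildtype, and KD for cells with the short hairpin shMETTL1. From each, 3 libraries labelled IN, taken here as input RNA, and 3 labelled IP, taken as the m7G immunoprecipitate, were made from RNA captured on oligo d(T) beads, which gives 12 libraries in 4 groups. The labels do not state whether the 3 libraries of a group came from separate cultures, and p values then measure the spread between these libraries only, which may be technical.

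N7-methylguanosine forms the cap at the 5 prime end of nuclear-encoded messenger RNA and is also found inside transfer RNA, ribosomal RNA and messenger RNA. METTL1, with its partner WDR4, is the methyltransferase known for writing m7G in transfer RNA and at internal sites of messenger RNA. The 3 prime end of a gene commonly holds the stop codon, the 3 prime untranslated region with its microRNA and protein binding sites, and the signal at which the transcript is cleaved and given its poly(A) tail. Exons, coding sequence and untranslated regions were not separated here, so a peak is placed only by its share of the gene body, introns included, and by its bases to the annotated gene end.

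Sequence could be shown where a RefSeq table of microRNAs or of gene starts on GRCh38 reached into a peak. The first sequence is shown because its whole hairpin lies inside a 3 prime end peak. FSTL1, a secreted follistatin-like glycoprotein, had a peak at chr3:120395489-120395729 on the minus strand that covered all 62 bases of the hairpin MIR198 (chr3:120395668-120395729), mature miR-198 (chr3:120395703-120395724) included. The mature sequence follows 5′ to 3′, with the seed (bases 2 to 8) in capitals.
hsa-miR-198: gGUCCAGAggggagauagguuc
The FSTL1 peak held 24 reads in the NC IN libraries together, 7 in NC IP, 2 in KD IN and 9 in KD IP. The hairpins of 2 other microRNAs reached into peaks in part, MIR4737 in HEATR6 with 52 of 81 bases and MIR4750 in TBC1D17, a RAB GTPase activating protein, with 37 of 56, and both peaks left out the seed. The TBC1D17 peak held 3 and 45 reads in NC IN and NC IP and 20 and 54 in KD, and the HEATR6 peak 17 and 6, then 1 and 8. None of these counts allows a firm comparison.

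The second set is shown because the hexamer AATAAA is the common poly(A) signal. The start windows of other genes, 300 bases long, covered parts of 9 of the peaks, and 3 of those parts, in 2 genes, hold AATAAA on the strand of the gene. Searched on 1 strand, 9.84% of all 35116 start windows hold it. SYMPK encodes symplekin, the scaffold of the cleavage and polyadenylation machinery. Its peak at chr19:45815439-45815893 has the hexamer 54 bases before the gene end, and a second, overlapping SYMPK peak covers the same hexamer. In ZMYND11, a reader of methylated histone H3, the peak at chr10:248591-249036 has it 5690 bases before the gene end. Capitals mark the hexamer, and the coordinates are those of the 30 bases printed.
SYMPK, chr19:45815452-45815481, minus strand: gccttaaaaagaAATAAAagatgtgaactt
ZMYND11, chr10:248930-248959, plus strand: agacaagctgtaAATAAAgctgtagccaac

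The third sequence shows what the rule does with a peak on the strand opposite to its gene. A gene strand could be had for 2106 of the 2636 peaks, and 46 of them (2.18%) lay on the opposite strand, where the last 10% by the strand of the peak is the first 10% of the gene. Of these 46, 25 (54.3%) had the start of another gene on the strand of the peak within 500 bases, against 12 of 2060 (0.583%) on the strand of the gene. TCF12, a transcription factor gene on the plus strand, had such a peak at chr15:56918451-56918511 that holds the start of its divergent transcript TCF12-DT. It was the only 1 of the 46 with a listed start inside the peak. Capitals mark the 15 bases from that start on.
TCF12-DT start, chr15:56918485-56918514, minus strand: ccgcggcgggtggacAAAGCCCGCGGTCGG

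Several facts of all libraries bear on the values below. Reads in peaks numbered 907024 to 1052685 in the 3 NC IN libraries, 1476384 to 1676625 in NC IP, 953727 to 1105477 in KD IN and 1513492 to 1888972 in KD IP, so IP values rest on more reads. No peak lay in METTL1 itself, so the knockdown was not measured in these files. NC and KD differed in the summed reads of marker lists. The lists were drawn up with earlier results of these data known, so the sums are descriptions and no test of cell type. Regions of 13 of 20 genes listed as markers of embryonic kidney and epithelial lines summed to 12808 to 13337 CPM (counts scaled by the peak reads of each library) in NC IN and 12579 to 13627 in NC IP, against 1321 to 1567 in KD IN and 940 to 1156 in KD IP. AKAP12, CCDC8, KRT18, LIN28B and MAP9 were at 0 in all KD IN libraries. Of the 21 tested regions of this list, 19 were called lower in KD IN and 2 higher. Macrophage markers (regions of 12 of 24 genes) summed to 861 to 928 CPM in NC IN and 1591 to 1700 in KD IN, although CD4 was at 0 in KD IN. Pan-leukocyte markers (6 of 14 genes) summed to 935 to 1049 and 2233 to 2480 CPM. The part of these differences in any comparison of KD with NC was not tested, and in such libraries fewer cells of a type and less RNA per cell cannot be told apart.

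The median midpoint of the peaks lay 1122 bases before the annotated gene end (quartiles 509 and 2579). The last 10% of the gene body held 29.7% (28.4 to 31.1) of the 4544 peaks of the NC set in 1 gene and 27.8% (26.5 to 29.1) of the 4621 of the KD set. Steps of 10% between the ends held 3.04% to 9.56% each, with the most, 876 peaks, just before the last 10%. Within the last 10%, 557 of the 2636 peaks (21.1%) lay in the last 1%. Between 0 and 250 bases from the end lay 295 peaks (11.2%), 346 lay from 250 to 500 bases, 558 from 500 to 1000, 564 from 1000 to 2000 and 609 from 2000 to 5000. Another 179 lay from 5000 to 10000 bases and 78 farther, as the last 10% of a long gene is long, and 7 had their midpoint beyond the annotated end.

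**Figure D1:**
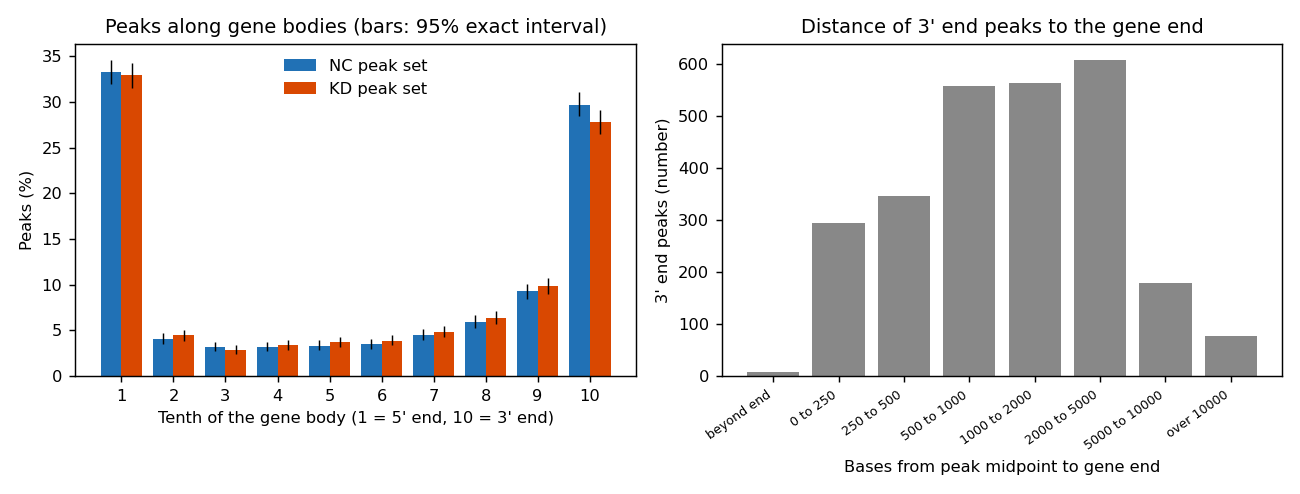
Left, the percent of the NC and KD peak sets in 1 protein-coding gene by steps of 10% of the gene body, with 95% exact intervals, and right, the number of the 2636 peaks by bases from their midpoint to the annotated gene end. The last 10% holds 29.7% of the NC set and 27.8% of the KD set, and 295 peaks lie 0 to 250 bases from the end.

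Peaks of the 3 prime end were narrow and thinly read. Their median width was 152 bases (quartiles 92 and 241), against 193 in the first 10% and 182 between. The median peak held 40 reads over all 12 libraries (quartiles 19 and 306), against 182 in the first 10% and 86 between. Of the 2636 peaks, 1689 held under 100 reads, 357 held 1000 or more and 58 held 10000 or more. In NC IN 404 peaks had no read, and in KD IN 411. By the authors' own peak-call statistics, 1965 peaks (74.5%) had an adjusted p at or under 0.05, and the highest was 0.415.

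The NC and KD peak sets were called separately and can be compared by overlap. A peak of the other set lay on 29.2% of them (27.5 to 31), against 50.5% in the first 10% and 36.9% between. Among peaks with enough reads for the tests below, the shares were 59.4%, 62.8% and 58.8%. By gene, 451 of the 1805 genes had such a peak in both sets, 709 in the NC set alone and 645 in the KD set alone, and 1145 had no peak outside their last 10%. Most genes, 1470, had their 3 prime peaks in 1 cluster of overlapping peaks and 268 had them in 2. SHANK1, a postsynaptic scaffold, had 6 clusters and ANKRD11, a chromatin regulator, had 5.

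At the limit of the rule stood HOOK2, an adaptor of dynein motors, just inside and LIMD1, a LIM domain protein, just outside. HOOK2 had 45.7 CPM on average in NC IN and 26.5 in NC IP, whereas LIMD1 held 34 reads in all and was not tested.

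IP libraries held a smaller share of their reads in these peaks than IN libraries did. The share was 20.2% ± 0.379 (SD, n = 3; range 19.8 to 20.5) in NC IN and 18.4% ± 0.458 (18 to 18.9) in NC IP. It was 19.3% ± 0.416 (19 to 19.8) in KD IN and 17.9% ± 0.404 (17.5 to 18.3) in KD IP. IN and IP did not overlap in either group. Peaks between the ends held 52% in NC IN and 45.4% in NC IP, and 52.3% and 45% in KD, so a lower share in IP is not particular to the 3 prime end. Peaks of the first 10% moved the other way, with 18.3% ± 0.7 in NC IN, 21.7% ± 1.18 in NC IP, 20.3% ± 0.529 in KD IN and 23.4% ± 0.473 in KD IP. Reads in 3 prime end peaks over reads in 5 prime end peaks came to 1.11 in NC IN (1.07 to 1.12) and 0.847 in NC IP (0.816 to 0.87), and to 0.954 in KD IN (0.936 to 0.967) and 0.762 in KD IP (0.752 to 0.769). All 6 IP libraries lay below all 6 IN libraries in this ratio. No test was made of these shares, which describe the 12 libraries.

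**Figure D2:**
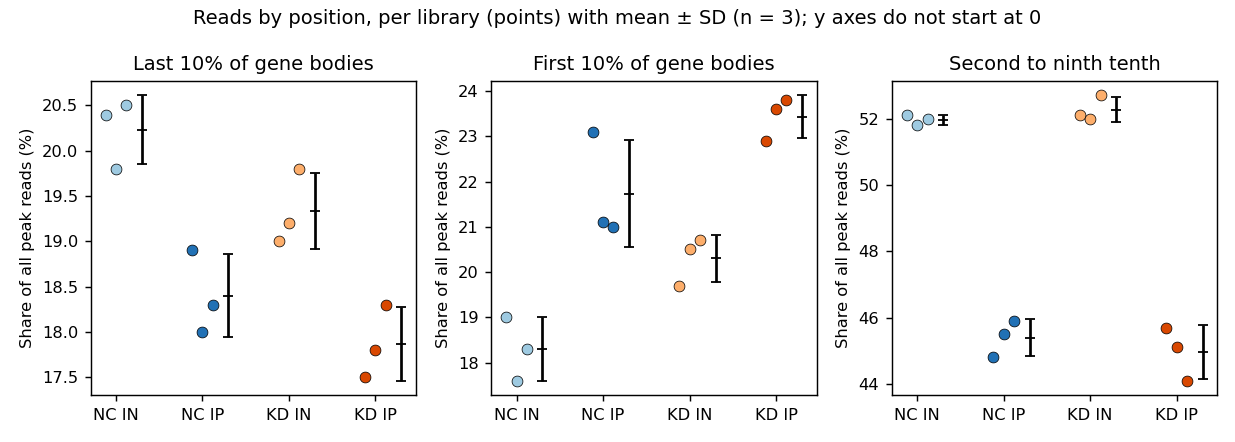
Share of peak reads by position in each library. Each point is 1 of the 12 libraries, with bars for mean ± SD (n = 3), and the vertical axes give the percent of its peak reads in the last 10%, in the first 10% and between; they do not start at 0. In the last 10% the 3 NC IN libraries lie at 19.8 to 20.5 and the 3 NC IP libraries at 18 to 18.9.

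IP against IN asks which peaks the m7G antibody enriched more or less than the average peak. Each region was tested with edgeR's quasi-likelihood test at an adjusted p under 0.05, over 5113 regions with enough reads, and 1011 of the 2636 peaks of the 3 prime end, in 642 genes, were among them. The other 1625 had too few reads. In NC, 184 of the 1011 were higher in IP and 261 lower, 44% in all, while 46.7% of all tested regions passed. Lower peaks made up 25.8%, against 24% of all regions, and higher ones 18.2%, against 22.7%. In KD, 201 were higher and 242 lower, 43.8% against 44.9% of all regions. The median log2 IP over IN was -0.08 in NC and 0.05 in KD, between the medians of the first 10% (0.48 and 0.51) and of the peaks between the ends (-0.22 and -0.02), and below that of all regions (0.13 and 0.23). Both groups called 135 of the 1011 higher and 194 lower, and 3 were lower in NC and higher in KD.

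The balance of higher and lower turned with the scaling. Scaled to library size alone, 260 were higher and 156 lower in NC, and 236 and 179 in KD, so that 62.5% and 56.9% of called peaks were higher, against 41.3% and 45.4% with TMM. All regions moved the same way, with 48.6% higher under TMM and 67.2% under library size in NC, and 52.3% and 63.6% in KD. Their median moved by over 0.1 on the log2 scale, to 0.42 in NC and 0.40 in KD. The median of the 3 prime end peaks stayed below that of all regions (0.22 in both groups). A change of scaling shifts all regions of a comparison by nearly the same amount. This order could therefore hardly have turned and is no check. Libraries of IP and IN did not overlap in 54.3% of the 1011 in NC and 54.2% in KD, against 57.8% and 56.6% of all regions.

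Median enrichment varied with the distance to the gene end, without an even fall. Tested peaks within 250 bases of the end had a median log2 IP over IN of 0.25 in NC and 0.38 in KD. From 250 to 500 bases the medians were -0.05 and 0.30, from 500 to 1000 bases -0.14 and -0.06, and from 1000 to 2000 bases -0.03 and -0.04. From 2000 to 5000 bases they were -0.11 and 0.09, from 5000 to 10000 bases -0.41 and -0.27, and beyond 10000 bases -0.57 and -0.13. The peaks of a bin share libraries and many share a gene, so no test was made.

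**Figure D3:**
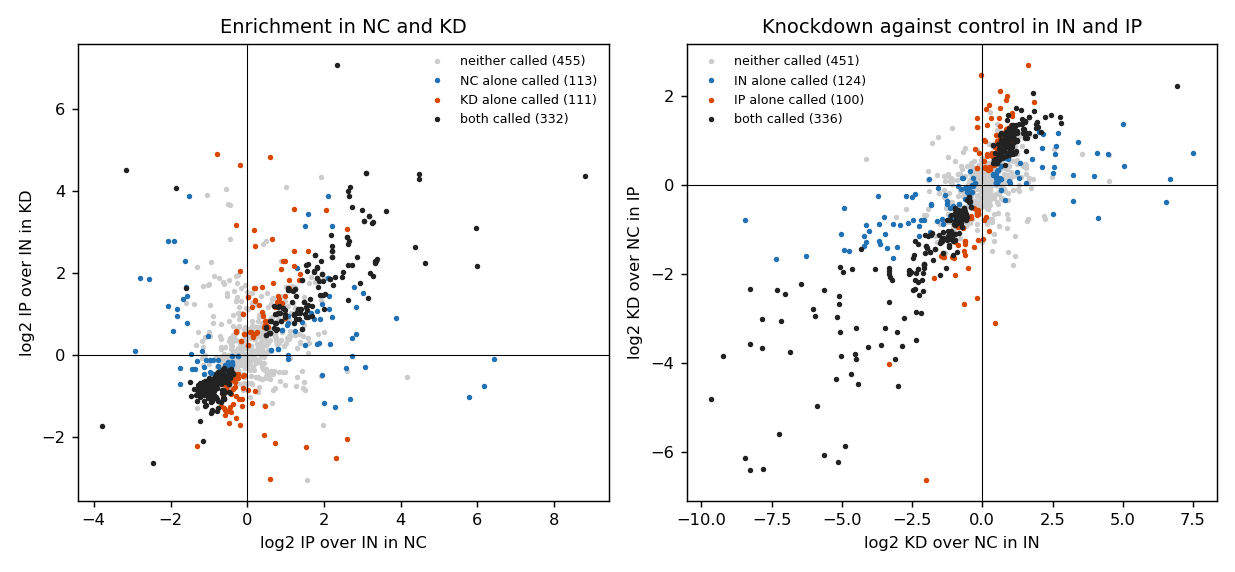
Fitted log2 values of the 1011 tested 3 prime end peaks, 1 point each, coloured by where edgeR called them: left, IP over IN in NC and in KD, and right, the ratio of KD to NC in IN and in IP. On the left 135 peaks were called higher in both groups and 194 lower in both, and on the right 150 and 186.

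A few 3 prime end peaks were strongly enriched in both groups. ZSWIM9 had the most highly read of those named here, at chr19:48196753-48197620, with its midpoint 434 bases before the gene end. Its peak read 153, 112 and 150 CPM in NC IN and 1082, 1464 and 1219 in NC IP, then 69.1, 76.5 and 78.3 in KD IN and 968, 819 and 562 in KD IP. The log2 IP over IN was 3.17 ± 0.17 SE in NC (adjusted p = 5e-13) and 3.39 ± 0.18 in KD (3.3e-13). Every IP library lay above every IN library.

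SEC14L1, a lipid-binding domain protein known as a regulator of RIG-I signalling, was alike. Its peak at chr17:77215603-77216443 read 29.3, 25.3 and 46.2 CPM in NC IN and 361, 312 and 314 in NC IP, and 26.4, 38.2 and 42.4 in KD IN and 316, 331 and 372 in KD IP. Its log2 values were 3.28 ± 0.19 (adjusted p = 2.6e-12) and 3.25 ± 0.19 (1.4e-12). ADARB1 encodes the adenosine deaminase ADAR2, which edits A to I in double-stranded RNA. Its peak at chr21:45224194-45225003 read 3.14, 2.53 and 2.31 CPM in NC IN and 73.7, 60.4 and 49.7 in NC IP, then 4.06, 2.87 and 5.44 in KD IN and 94.4, 66.2 and 85.1 in KD IP, for log2 values of 4.47 ± 0.41 (adjusted p = 3.4e-09) and 4.30 ± 0.36 (8.4e-10).

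Others rested on fewer input reads. ASPDH, an aspartate dehydrogenase domain protein, had log2 values of 2.72 ± 0.32 in NC and 3.60 ± 0.37 in KD. IQCE, a ciliary protein of Hedgehog signalling, had 2.69 ± 0.47 and 4.10 ± 0.54, with 16 reads in NC IN and 7 in KD IN, and its KD value was 3.48 without KD IN replicate 2. PIAS4, a SUMO ligase, had 3.05 ± 0.68 in NC on 7 input reads. PCSK6, a proprotein convertase, had no read in NC IN, which makes it at least 36-fold higher in NC IP by the floor of 3 reads over the group. In KD its value was 4.36 ± 0.56 on 6 input reads, 3.76 without KD IN replicate 1 and 6.13 without KD IN replicate 2. All of these passed the test in the group named.

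Other 3 prime end peaks were depleted in IP. PPHLN1 encodes periphilin, a part of the HUSH silencing complex. Its peak at chr12:42446006-42446156 read 28.3, 32.9 and 23.1 CPM in NC IN against 2.12, 1.25 and 2.52 in NC IP, a log2 of -3.77 ± 0.60 (adjusted p = 1.3e-05). In NC the peaks of CBY1, an antagonist of beta-catenin (-3.15 ± 0.61), CCND2, cyclin D2 (-2.94 ± 0.53), IGF2BP3, an RNA-binding protein that stabilises messenger RNA (-2.81 ± 0.64), and SDK2, a cell adhesion protein (-2.55 ± 0.74), passed as well. The last 4 held 0 to 2 reads in KD IN, so their KD enrichment was hardly measured. PPHLN1 and these 4 were all peaks of the KD set, with an authors' fold of 12.3 for PPHLN1 and 29.6 for CBY1. They had thus been called in the other group, and the part of that choice in their low NC values was not tested.

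In KD the lowest values that held without each library in turn were those of RIMS3, a presynaptic protein, STX3, a syntaxin of vesicle fusion, and MYL6, a myosin light chain. RIMS3 read 20.3, 15.3 and 10.9 CPM in KD IN and 2.13, 1.49 and 1.86 in KD IP, a log2 of -3.03 ± 0.77 (adjusted p = 0.0024). STX3 had -2.51 ± 0.75, which was -3.28 without KD IP replicate 2. MYL6 read 43.7, 31.5 and 41.3 in KD IN and 10.7, 8.96 and 7.45 in KD IP, a log2 of -2.09 ± 0.39 (adjusted p = 0.00012). RIMS3, STX3 and MYL6 were peaks of the NC set, called in the other group, and the part of that choice was not tested.

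The 5 most highly read 3 prime end peaks lay in HSP90AA1, SRSF11, RAB13, ANKRD11 and PSMD7. The peak of HSP90AA1, the inducible cytosolic HSP90, read 22803, 21785 and 22910 CPM in NC IN and 11844, 10665 and 12352 in NC IP. Peaks of ANKRD11 (-0.78 ± 0.12 in NC and -0.52 ± 0.12 in KD) and of PSMD7, a subunit of the proteasome lid (-0.61 ± 0.10 in NC), were lower too. RAB13, a small GTPase whose messenger RNA is known to be carried to cell protrusions through its 3 prime untranslated region, was higher in IP in both groups. Its peak at chr1:153981765-153982245 read 2018, 1999 and 2310 CPM in NC IN against 3330, 2462 and 3060 in NC IP, and 3259, 3688 and 3799 in KD IN against 4784, 5215 and 7095 in KD IP. The log2 values were 0.48 ± 0.13 (adjusted p = 0.0033) and 0.67 ± 0.13 (0.00014). SRSF11 had a log2 of -0.25 ± 0.09 in NC with TMM and 0.04 with library size alone, which did not pass (adjusted p = 0.68 in edgeR). Its direction thus rests on the scaling.

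Lists of genes by role are given by their tested 3 prime end peaks, several of which can belong to 1 gene. Beside them, 22.7% of all regions were higher in IP and 24% lower in NC, and 23.5% and 21.4% in KD. List counts near these shares say nothing particular about a list. Of 7 chaperone peaks in 4 genes, NC called 5 lower in IP and KD called 4, and no chaperone peak was higher (medians -0.80 in both; 4 and 4 lower with library size alone). CCT6A, a subunit of the TRiC folding chamber, read 335, 307 and 305 CPM in NC IN and 174, 190 and 180 in NC IP, a log2 of -0.80 ± 0.12 in NC and -0.81 ± 0.12 in KD. Of 4 translation factor peaks, 3 were lower in each group, and the same counts held with library size alone. EEF2, the elongation factor of ribosome translocation, had -0.85 ± 0.13 and -1.01 ± 0.14. EEF1A2, the neuronal and muscle form of eEF1A, was the peak higher in KD, on 8 input reads and only as long as KD IN replicates 2 and 3 and KD IP replicate 1 were kept (log2 1.63 ± 0.61; 1.40, 1.05 and 1.39 without them, and 2.93 without KD IN replicate 1).

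Of 6 lysosome and phagocyte peaks, 1 was higher and 4 lower in NC, and none was higher and 4 lower in KD. With library size alone the lower ones numbered 2 and 3, and 1 was still higher in NC. CTSD, the lysosomal protease cathepsin D, had -0.80 ± 0.17 in both NC and KD, and GPNMB, a glycoprotein of macrophage lysosomes, had -0.69 ± 0.17 in KD. Outside this list, LAPTM5, a lysosomal membrane protein of blood cells, and MMP9, a matrix protease of macrophages, were lower in both groups. LAPTM5 read 391, 421 and 344 CPM in NC IN and 225, 173 and 246 in NC IP, a log2 of -0.84 ± 0.13 in NC and -1.03 ± 0.12 in KD. MMP9 had -0.88 ± 0.17 and -0.85 ± 0.16.

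Genes of 3 prime end processing itself had 6 tested peaks in 3 genes, RBBP6, SYMPK and WDR82. In NC 1 was higher and 2 lower, and in KD 3 were lower, with the same counts under library size alone. RBBP6, a ubiquitin ligase of the cleavage machinery, read 524, 476 and 554 CPM in NC IN and 279, 334 and 331 in NC IP, a log2 of -0.72 ± 0.14 in NC and -0.63 ± 0.14 in KD. The SYMPK peak whose sequence is printed above had -0.48 ± 0.30 in NC (adjusted p = 0.2) and -0.58 ± 0.31 in KD (0.13), neither of which passed. Of 4 peaks of proteins that bind 3 prime untranslated regions or drive decay, IGF2BP3 alone passed, in NC. The only peak of an RNA methylation gene, that of the m6A demethylase ALKBH5, passed in neither group (-0.70 ± 0.36 and -0.07 ± 0.39).

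Splicing and hnRNP peaks went both ways, with 4 of 16 higher and 6 lower in NC and 2 and 4 in KD. With library size alone the lower ones numbered 0 and 1, so their direction rests on the scaling. Of 10 ubiquitin system peaks, 2 were higher and 5 lower in NC and 2 and 3 in KD, and 4 and 2, and 3 and 2, with library size alone. SPOP, the substrate adaptor of a cullin ubiquitin ligase, read 125, 107 and 118 CPM in NC IN and 38.7, 50.4 and 52.9 in NC IP, a log2 of -1.31 ± 0.19 in NC and -0.83 ± 0.19 in KD. Of 8 actin peaks 2 were higher and 4 lower in NC, 2 and 3 in KD, and 2 and 2 in each with library size alone. PFN1, the actin monomer binder profilin, had -0.91 ± 0.19 and -1.11 ± 0.20. Of 12 membrane traffic peaks 3 were higher in NC and 4 in KD, with 1 lower in each and none lower with library size alone.

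The remaining lists held few tested peaks. Of 4 pan-leukocyte peaks 2 were lower in each group, none of them in NC with library size alone. Of 3 inflammatory peaks 1 was lower in NC and 2 in KD, and of 7 cell cycle peaks 1 was lower in NC, that of CCND2. Peaks of the integrated stress response, glycolysis and fibroblast lists did not pass in either group. Lipid metabolism and ribosomal protein genes had no tested 3 prime end peak, and lymphoid markers had no such peak at all.

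**Figure D4:**
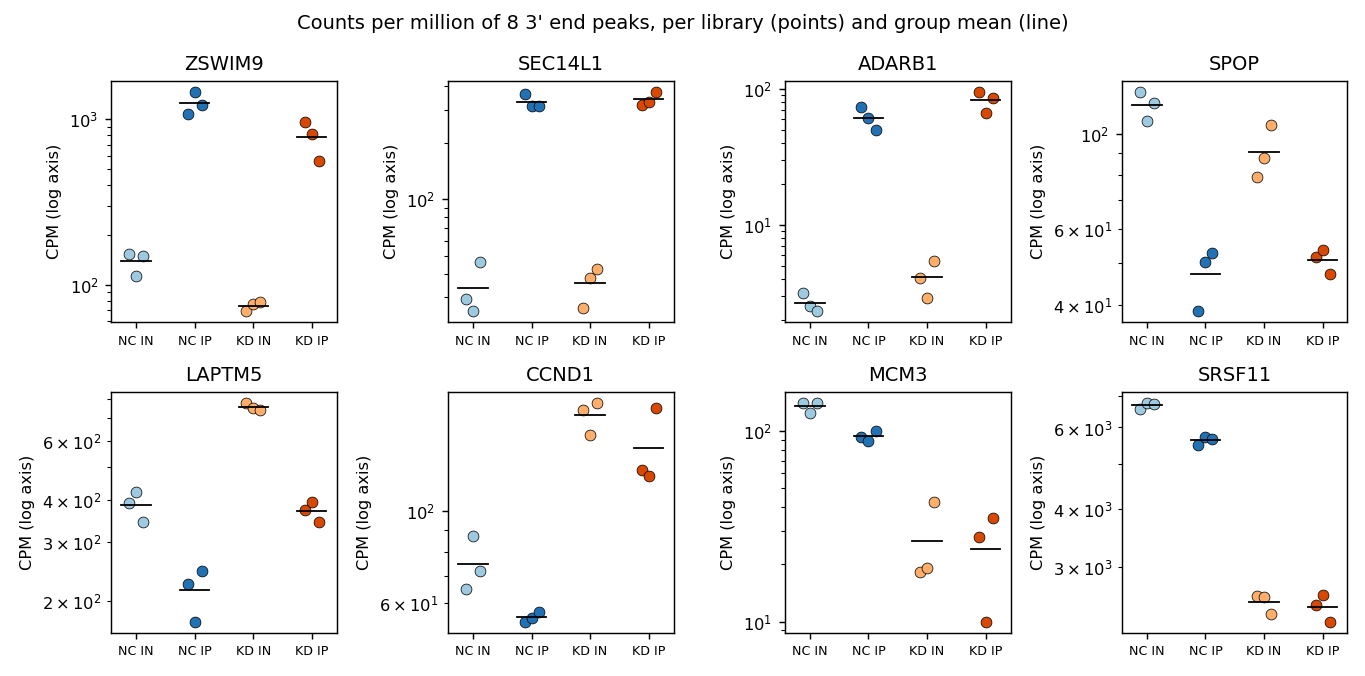
CPM of 8 named 3 prime end peaks in each of the 12 libraries, on a log axis. Points are single libraries by group, and lines are group means. ZSWIM9, SEC14L1 and ADARB1 lie higher in IP, SPOP and LAPTM5 lower, and CCND1 and MCM3 part KD from NC.

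Genes with a tested peak at both ends allow a comparison within 1 gene. There were 101 of them, each with its most highly read peak in the last 10% set against that in the first 10%, and 91 had both on the same strand and apart. In the other 10 the regions overlapped on opposite strands, and so were not the ends of 1 transcript. The 3 prime peak had a log2 IP over IN above 0 in 34 of 101 in NC and 38 in KD, and the 5 prime peak in 66 and 71. The median was -0.42 at the 3 prime end and 0.50 at the 5 prime end in NC, and -0.34 and 0.55 in KD. The difference, 3 prime minus 5 prime, had a median of -0.54 in NC, below 0 in 68 of 101, and of -0.67 in KD, below 0 in 75. Over the 91 pairs alone it was -0.86 in NC, below 0 in 63, and -0.74 in KD, below 0 in 70.

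How many of the 101 pairs passed depended on the test. The region-level test of edgeR sets the 3 prime region against its gene as a whole, that region included. Its p is therefore not a p of the difference between the ends. It called 7 of the 101 in NC (6.93%), with 3 higher and 4 lower at the 3 prime end, and 4 in KD (3.96%), with 1 and 3. The gene-level test, added after the data were seen, called 43 (42.6%; 6 and 37) and 28 (27.7%; 3 and 25), with 22 genes in both, 20 of them lower at the 3 prime end and 2 higher. Limma on the log2 ratio of the reads called 28 (27.7%; 4 and 24) and 22 (21.8%; 1 and 21). All 7 region-level calls in NC were among the 17 gene-level calls whose 3 prime peak had fewer reads, and none among the 26 whose 3 prime peak had more. In KD they were 4 of 10 and 0 of 18. In NC the 7 became 4 without NC IN replicate 1 or NC IP replicate 1 and 3 without NC IN replicate 2 or NC IP replicate 2, and in KD the 4 became 2 without KD IP replicate 2 and 7 without KD IP replicate 3.

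EIF4G1, which holds the cap-binding factors together, had the lowest 3 prime minus 5 prime difference among the region-level calls. Its 3 prime peak (chr3:184334879-184335059) read 130, 160 and 143 CPM in NC IN and 83.8, 82.2 and 78 in NC IP, whereas its 5 prime peak (chr3:184314494-184315253) read 23, 19 and 19.6 in NC IN and 207, 203 and 154 in NC IP. Reads of the 3 prime peak over those of the 5 prime peak came to 5.53, 8.23 and 7.11 in the NC IN libraries and 0.406, 0.406 and 0.509 in NC IP, and to 7.48, 4.65 and 4.54 in KD IN and 0.461, 0.469 and 0.362 in KD IP. The 2 ends of 1 gene thus moved in opposite directions in every IP library. The difference was -4.01 in NC (limma -3.97 ± 0.30 SE, adjusted p = 8.6e-06) and -3.64 in KD (limma -3.66 ± 0.30, 1.9e-05). For the 3 prime region against its gene, the edgeR region-level adjusted p was 5.4e-07 in NC and 9e-07 in KD.

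PPP6R1, a regulatory subunit of protein phosphatase 6, and ZEB2, a zinc finger repressor, show what the region-level test leaves out. They were chosen after their values were seen. In PPP6R1 the 3 prime peak had 27.7, 33.9 and 28.6 times the reads of the 5 prime peak in NC IN and 2.6, 3.02 and 2.93 times in NC IP. The difference was -3.43. The adjusted p was 0.1 in edgeR's region-level test, which is of the 3 prime region against its gene. It was 1e-12 in edgeR's gene-level test and 1.7e-05 in limma. ZEB2 had a difference of -2.88, with 0.72, 2.1e-11 and 0.00023 in the same order.

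CYTH2, an exchange factor for ARF GTPases, went the opposite way. Its 3 prime peak had 0.19, 0.223 and 0.147 of the reads of its 5 prime peak in NC IN and 0.43, 0.463 and 0.384 in NC IP, and 0.0455, 0.0928 and 0.0342 in KD IN and 0.221, 0.22 and 0.138 in KD IP. The ratios of IP and IN did not overlap. The difference was 1.75 in KD (limma 1.85 ± 0.39 SE, adjusted p = 0.008). For the 3 prime region against its gene, the edgeR region-level adjusted p in KD was 0.00094.

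**Figure D5:**
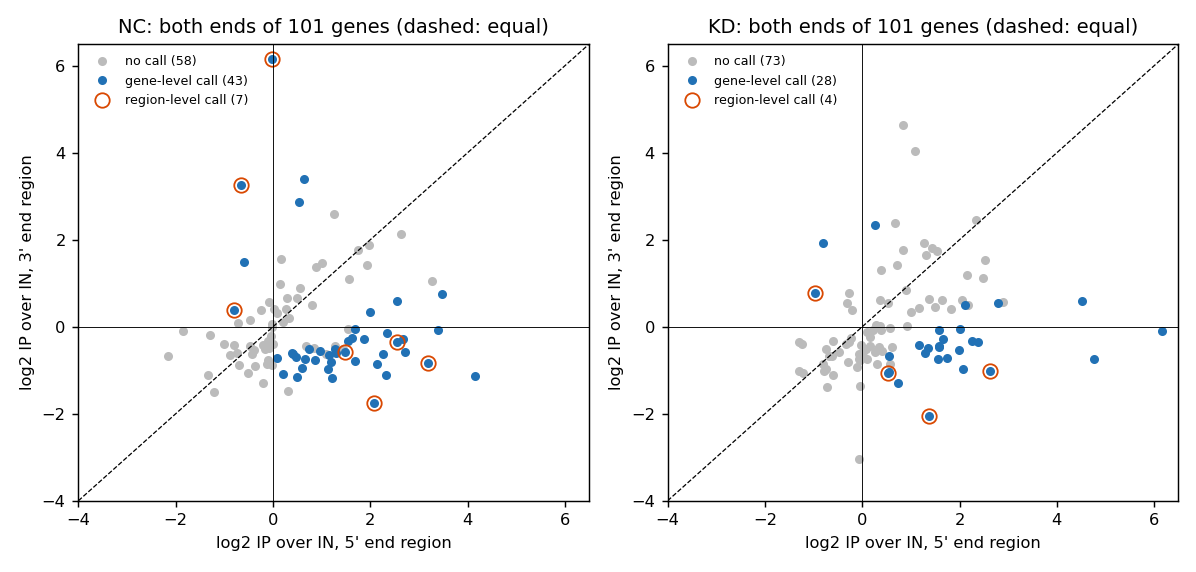
Enrichment at both ends of 101 genes. Each point is 1 gene, with the log2 IP over IN of its 5 prime peak on the horizontal axis and of its 3 prime peak on the vertical axis, for NC and for KD. Blue points passed the gene-level test and circled ones the region-level test, and 68 of 101 genes in NC lie below the line of equal values.

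The change in enrichment sets the IP over IN ratio of KD against that of NC, and asks whether the knockdown altered m7G signal beyond RNA level. With edgeR, 0 of the 1011 3 prime end peaks passed, as did 0 of all 5113 regions (0%), while 118 of the 1011 (11.7%) had an unadjusted p under 0.05, against 11.9% of all regions. DESeq2 called 6 of the 1011, beside 21 of all 5113 regions (0.411%). Without a filter edgeR tested all 2636 3 prime end peaks and called 11, beside 45 of all 9958 regions (0.452%). The median was 0.11, and 0.08 over all regions. The smallest adjusted p, 0.12, was that of EEF1A2 (3.22 ± 0.65), which rests on 8 reads in KD IN and passed without KD IN replicate 1 (4.45, adjusted p = 0.039 in edgeR). It also passed in DESeq2 (3.16, adjusted p = 0.0065) and in edgeR without the filter on low counts (3.16, 0.00023).

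VASH1, an angiogenesis inhibitor that removes the last tyrosine of alpha-tubulin, had better depth. Its peak at chr14:76780976-76781127 read 41.9, 25.3 and 39.3 CPM in NC IN and 27.6, 26.8 and 40.3 in NC IP, and 124, 101 and 91.3 in KD IN and 24, 30.4 and 42.8 in KD IP. IN was higher in KD while IP overlapped between the groups. The change of -1.53 ± 0.39 had an adjusted p of 0.13 and did not pass in edgeR, while DESeq2 gave -1.62 with an adjusted p of 0.04. ANKRD33B, an ankyrin repeat protein (1.38 ± 0.37, adjusted p = 0.14), SCRIB, a cell polarity scaffold (0.77 ± 0.21, 0.15), and TBC1D10B, a RAB GTPase activating protein (0.58 ± 0.16, 0.15), did not pass either. The TBC1D10B peak rested on 22016 reads. VASH1, with a negative change, was a peak of the NC set, and ANKRD33B, SCRIB and TBC1D10B, with positive ones, of the KD set.

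The authors' deposited table gives its own change between the groups. At its adjusted p under 0.05 it called 22 of the 2636 peaks (0.835%), 9 higher and 13 lower in KD, against 0.783% of all 9958 peaks. All 9 higher ones were peaks of the KD set and all 13 lower ones of the NC set. Direction and the set in which a peak had been called thus cannot be told apart here. Of the 22, 15 held 0 to 3 reads in an input group and 12 had been tested with edgeR. In the authors' deposited table VASH1 had a log2 change of -1.64 (adjusted p = 7.8e-05) and FAT1, a giant cadherin, -1.83 (0.0021). AGO2, the slicer Argonaute that binds microRNA target sites, had -5.51 (0.039) in the authors' deposited table on 1 read in NC IN and 25 in NC IP, against 33 and 20 in KD. FAT1 and AGO2 were chosen after their values were seen.

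KD against NC in IN asks which peak regions differed in RNA level. Of the 1011, 201 were higher in KD IN and 259 lower, 45.5% in all, against 39.8% of all regions (17.9% higher and 21.9% lower). Libraries of the groups did not overlap in 51.4%, against 44.8%. Peaks between the ends came close in IN, with 44.4% called (17.7% higher and 26.7% lower) and 50.4% not overlapping. In the first 10%, 33.5% were called. In IP 210 were higher and 226 lower, 43.1% against 41% of all regions (20.9% higher and 20.1% lower). Between the ends 45.9% were called in IP, and 36.3% in the first 10%. A share above that of all regions is thus not particular to the 3 prime end. Counts of gene lists below are to be read beside the shares of all regions. Both comparisons called 150 of the 1011 higher and 186 lower, and none in opposite directions. With library size alone 231 were higher and 239 lower in IN, and 193 and 233 in IP. Summed, the embryonic kidney and epithelial line markers were lower in KD in the same libraries, with the CPM given above. Of their 21 tested regions 2 were higher in KD IN, and the part of the list in these values was not tested.

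Several 3 prime end peaks were nearly without reads in KD. LMOD1, leiomodin of smooth muscle, read 94.3, 80.9 and 86.7 CPM in NC IN, 183, 178 and 188 in NC IP, 2.03, 1.91 and 3.26 in KD IN and 3.2, 1.49 and 2.48 in KD IP. Its log2 KD over NC was -5.15 ± 0.33 in IN (adjusted p = 8.5e-12) and -6.22 ± 0.27 in IP (3.1e-15). AKAP12, a kinase anchoring scaffold on the epithelial marker list, read 77.5, 88.4 and 57.8 in NC IN and had no read in KD IN, at least 73.1-fold lower. P3H3, a collagen prolyl hydroxylase, had no read in KD IN either and was at least 54.6-fold lower. KIF1A, a kinesin of synaptic vesicle precursors, had -4.90 ± 0.51 in IN on 5 reads in KD, and -5.51 and -4.31 without KD IN replicates 2 and 3.

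In IP several peaks were far lower in KD. MEX3A, an RNA-binding ubiquitin ligase, read 29.7, 36.1 and 27.7 CPM in NC IP and 1.6, 0.996 and 1.24 in KD IP, a log2 of -4.51 ± 0.57. SLC6A17, a transporter of synaptic vesicles, had -4.97 ± 0.74, and CGNL1, a junction protein, -4.47 ± 0.77, on 4 reads each in KD IP. Without KD IP replicate 2 the CGNL1 value was -5.54.

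Macrophage marker peaks were higher in KD, and leukocyte peaks in part. All 4 tested macrophage marker peaks, in LAPTM5 and CYBB, were higher in KD in IN and in IP, with medians of 0.90 and 0.94, and this held with library size alone. LAPTM5 read 391, 421 and 344 CPM in NC IN and 778, 749 and 738 in KD IN, a log2 of 0.97 ± 0.12 (adjusted p = 7.4e-07). CYBB, the catalytic subunit of the phagocyte NADPH oxidase, read 226, 188 and 164 and then 309, 314 and 409, a log2 of 0.83 ± 0.16 in IN and 1.07 ± 0.16 in IP. Of 4 pan-leukocyte peaks 3 were higher in IN and 2 in IP (1 in IP with library size alone), among them HCLS1, a cortactin-like protein of blood cells, with 1.68 ± 0.35 and 1.16 ± 0.33. CD52, a surface glycoprotein of leukocytes, had 0.50 in IN (adjusted p = 0.41) and ITGB2, the beta-2 integrin chain, 0.15 in IP (0.47), neither of which passed. CCL22, a macrophage chemokine, read 27.2, 51.8 and 32.4 in NC IN and 115, 120 and 154 in KD IN, a log2 of 1.82 ± 0.24 in IN and 2.05 ± 0.23 in IP.

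Lysosome peaks were higher in KD in 4 of 6 in IN and in IP (3 in IP with library size alone). GPNMB read 97.4, 104 and 89 CPM in NC IN and 157, 164 and 146 in KD IN, a log2 of 0.69 ± 0.18 (adjusted p = 0.0029). Membrane traffic peaks were higher in 5 of 12 in each comparison, with 1 lower in IN and none lower in IP (7 and 4 higher, none lower, with library size alone). RAB13, the most highly read of them, had 0.76 ± 0.13 in IN and 0.95 ± 0.13 in IP. The summed macrophage markers named above moved in the same direction, and their part in these values was not tested.

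Cell cycle peaks parted by gene. CCND1, cyclin D1, read 64.9, 87.2 and 71.7 CPM in NC IN and 176, 153 and 183 in KD IN, a log2 of 1.20 ± 0.19 in IN (adjusted p = 1.5e-05) and 1.35 ± 0.18 in IP. MCM3, a subunit of the replicative helicase, read 141, 124 and 140 in NC IN and 18.3, 19.1 and 42.4 in KD IN, a log2 of -2.36 ± 0.32 in IN (adjusted p = 1.8e-06) and -1.98 ± 0.30 in IP. CCND2 was lower as well, with its NC set peak at -4.50 ± 0.63 in IN on 5 reads in KD, and -6.02 and -3.91 without KD IN replicates 1 and 3. In all, 2 of the 7 peaks of the list were higher and 5 lower in IN, with the same counts under library size alone.

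Splicing and hnRNP peaks were lower in KD where they passed. In IP 12 of 16 were lower and in IN 8, with none higher in either (14 and 6 lower with library size alone). The 12 lay in 6 genes and the 8 in 3, and overlapping peaks of both sets share reads. Of all regions 20.1% were lower in IP and 21.9% in IN. SRSF11, an SR-rich splicing regulator, had the second most highly read 3 prime end peak. It read 6579, 6784 and 6737 CPM in NC IN and 2609, 2593 and 2383 in KD IN, and 5510, 5729 and 5654 in NC IP and 2484, 2622 and 2290 in KD IP. The log2 values were -1.41 ± 0.09 in IN (adjusted p = 7.3e-12) and -1.19 ± 0.09 in IP (1.2e-10). HNRNPC, a binder of uridine tracts, was lower in KD in IP (-0.80 ± 0.19, adjusted p = 0.0014) and had 0.06 ± 0.20 in IN, and the difference between these, its change in enrichment, did not pass (adjusted p = 0.23).

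Of 8 actin peaks 2 were higher and 1 lower in KD in IN, and 4 and 1 in IP, with medians of 0.58 and 0.61 (4 and 1, and 3 and 1, with library size alone). Translation factors went the other way. EEF2 was lower in KD in IN (-0.56 ± 0.14) and in IP (-0.72 ± 0.14), among 2 and 3 of 4 translation factor peaks. Of 7 chaperone peaks 2 were lower in IN and none in IP, and none in either with library size alone. Of 4 peaks of proteins that bind 3 prime untranslated regions 2 were lower in IN and 1 in IP, and of 6 peaks of 3 prime end processing genes 2 were lower in each. Within genes, the region-level test in IN called 6 of the 101 pairs (5.94%), 2 with the 3 prime end higher in KD relative to the 5 prime end and 4 lower. Without NC IN replicate 3 it called 3, while the gene-level test called 10 (9.9%) and limma 7 (6.93%). In IP it called 0 of 101 (0%), with 13 at an unadjusted p under 0.05, while the gene-level test called 12 (11.9%) and limma 0. For the change in enrichment, the region-level test called 1 pair of 101 (0.99%), and both the gene-level test and limma called 2 (1.98%). The replicate block called none.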

How the data were processed

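The deposited table gives raw read counts for 9958 peak regions in 12 libraries, with the authors' fold and ratio of enrichment, log2 change and p-values per region. Reads were trimmed with fastp 0.23.4 and placed on GRCh38, per the submitters' processing notes. The aligner, the peak caller and the counting are not given in the sources used here. In the deposited table each peak is named for NC or KD, and peaks were taken as called separately in each, so a locus can appear as overlapping regions of both sets that share reads.

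Counts were tested as deposited with edgeR 4.0.16 (R 4.3.3): TMM scaling, a filter at a minimum count of 10 and a minimum total of 15, 1 quasi-likelihood fit on 4 group means, two-sided, with Benjamini-Hochberg adjustment over all 5113 tested regions and a threshold of 0.05. TMM takes most regions as unchanged between IP and IN, so log2 values are relative to the average region. Pairs of regions within a gene were tested with diffSpliceDGE at gene level and at region level, which sets the 3 prime region against its whole gene. They were also compared with limma 3.58.1 on the log2 ratio with a pseudocount of 0.5 reads. DESeq2 1.42.0, library size scaling, other filters, other limits of the 3 prime end and leaving out each library were alternatives. Errors are SE of the fit unless marked SD. Exact intervals and the floor of 3 reads cover counting error only, as reads carry no molecular identifiers. Intervals of peak shares also take peaks as independent, although peaks of both sets can overlap and several can lie in 1 gene. The scripts were tested on simulated data.

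Members and gene lists were chosen with earlier results of these data known. Named in each comparison are the highest and lowest log2 values among called peaks whose libraries did not overlap, bounds for peaks near 0 reads, the extremes within genes, the most highly read peaks overall and of each gene list, those at the 10% limit and, where none passed, the smallest p. Other names are marked. Gene bodies came from RefSeq. A few items the rule would name are not reported here.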

Additional observations from a re-analysis of the deposited data

Results flagged for a closer look

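In 5 of the peaks chosen for naming, every IP library lay on one side of the IN libraries in NC and on the other side in KD. The difference itself, the log2 change in enrichment, was tested with edgeR and missed the threshold in all 5 with the filter on low counts. CBY1 had a change of 7.65 (adjusted p = 0.12), with 84 reads in NC IN and 18 in NC IP, and 0 and 11 in KD. It passed in edgeR without the filter (7.53, adjusted p = 0.016) and in DESeq2 (6.53, 0.014). EEF1A2 had 3.22 (0.12) and passed in both as well (3.16 in each, adjusted p = 0.00023 and 0.0065). HIPK1 had -4.64 (0.16) on 1 read in NC IN, P3H3 had 5.39 (0.23) and PPL had -4.71 (0.34). CBY1, EEF1A2 and P3H3, with positive changes, were peaks of the KD set, and HIPK1 and PPL, with negative ones, of the NC set. CBY1 and P3H3 had no read in KD IN and PPL none in NC IN, so their fitted values depend on the prior count and are no bounds.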

How the results depend on the processing

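Counts of called 3 prime end peaks stayed within 1.5 times under most alternatives. Exceptions were the change in enrichment, with 6 called by DESeq2, 11 without a filter, 3 with the replicate block and 0 to 1 without each library in turn (1 without KD IN replicate 1), and IN, with 692 called without a filter. Without a filter all 2636 peaks were tested, not 1011. Leaving out each library gave 368 to 495 calls for NC enrichment, 364 to 497 for KD, 465 to 510 for IN and 355 to 460 for IP. For pairs within a gene, these ranges were 3 to 10 (NC), 2 to 7 (KD), 1 to 1 (change), 3 to 6 (IN) and 0 to 0 (IP). Limma called 28, 22 and 2 pairs (NC, KD, change), the gene-level test 43, 28, 2, 10 and 12 (NC, KD, change, IN, IP), and a minimum of 50 reads 2 in the change and 10 in IN. The median log2 moved with library size alone to 0.22 (NC), 0.22 (KD), -0.02 (change) and -0.01 (IP); with at least 50 reads to 0.09 (NC), 0.00 (change) and -0.05 (IP); with 1 region per cluster to -0.19, -0.06 and -0.07 (NC, KD, IP). It was 0.01 and 0.10 (NC, KD) in the last 5% of genes, -0.13 and 0.00 in the last 20%, and -0.01 (NC) and -0.11 (IP) within 2000 bases of the end. By the authors' fold, the last 10% held 32.8% of the upper 50% of peaks, 21.4% of peaks overlapping the other set by 1 base and 20.7% of those overlapping by 50% of both. The log2 IP over IN of SRSF11 in NC turned from below 0 to 0.04 with library size alone, which did not pass (adjusted p = 0.68 in edgeR). It also missed the threshold with at least 50 reads (-0.20, 0.085) and without each NC library in turn (0.051 to 0.15). Among values of named peaks 9345 kept their side, 381 lost and 118 gained a call.

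Whether replicate numbers pair the samples was not settled. In their deviations from group means, same-numbered libraries correlated at -0.088 to 0.068. Between IN and IP of KD the same-numbered ones gave 0.051, 0.063 and 0.048, above those of unlike number (-0.053 to 0). Between IN and IP of NC they gave 0.068, 0.024 and -0.019, and those of unlike number -0.064 to 0.045. With the replicate block, 5 pairs within a gene were called in NC, 3 in KD, 0 in the change, 6 in IN and 0 in IP. The block also called the change in enrichment of TBC1D10B (0.59, adjusted p = 0.011 in edgeR) and EEF1A2 (3.26, 0.0046). Of the 2636 peaks 1625 had too few reads for any test.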
